A study of Mus musculus with 7 samples.

Results

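Chondroitin and heparan sulfate synthesis was examined as a set of 48 genes out of the 43346 genes with counts in mouse growth plate. The members were chosen by symbol: the genes that build the linker, polymerise, epimerise and sulfate the chains and supply their precursors, with the heparan sulfate core proteins. No expression value served as a filter, but earlier results of these data were known when the genes were chosen. Each of the 48 symbols matched 1 gene of GENCODE release M21, on 19 chromosomes in all, and each was tested. Total RNA from the tibial growth plates of 7 male F1 mice aged 21 d, from a cross of C57BL/6J (B6) and CAST/EiJ (CAST), had been depleted of rRNA and sequenced. No treatment is labelled. All 7 mice carried 1 B6 and 1 CAST allele of every autosomal gene and bore the numbers 1, 2, 3, 4, 5, 7 and 8. The study used them to ask which genes are expressed more from either parental allele, and the only contrast is therefore CAST against B6 within the same animals. Whole growth plates from both ends of the tibia were homogenised, so each value is an average over the cells in the dissected tissue.

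Heparan sulfate and chondroitin sulfate are long, sulfated sugar chains attached to core proteins. Both start on the same short linker of xylose, galactose and glucuronic acid, after which separate polymerases extend them and epimerases and sulfotransferases give them their final pattern. In cartilage, chondroitin sulfate on aggrecan holds water and resists compression, and heparan sulfate binds hedgehog, FGF and other growth factors that control chondrocyte division and maturation. Inherited defects in many of these genes disturb skeletal growth in humans and mice.

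The deposited allele counts summed to between 14098019 and 37849667 per mouse, with a median of 27603769. These totals exceed the average number of read pairs in the labels, and how reads became counts over lanes and read ends is not fully stated, so a count need not be 1 read pair. The CAST allele held 50.3% to 50.6% of autosomal counts and 8.44% to 9.78% of X-linked counts. All 10 listed chondrocyte markers were counted in every mouse, and their summed level ranged from 7791 to 14212 CPM per kilobase of exon, where CPM is counts per 1000000 counts of a mouse. Markers of other cells were present too, with sums of 2322 to 3538 for osteoblasts, 1740 to 2659 for osteoclasts, 4144 to 10243 for erythroid cells, 1240 to 2393 for neutrophils and 1041 to 2255 for skeletal muscle. Sums were lower for the B lineage (26.0 to 81.0), endothelium (29.2 to 39.7) and adipocytes (34.6 to 58.5), though none of their listed genes was at 0. The tissue labelled growth plate chondrocyte therefore held transcripts of other cell types as well, in shares that these sums cannot rank, and fewer cells of a type and less RNA per cell cannot be told apart in such samples.

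Glce encodes the C5-epimerase that converts glucuronic acid to iduronic acid in the growing heparan sulfate chain. It lies at 62057248 to 62122655 on chromosome 9 (GRCm38/mm10, minus strand) and is the only one of the 48 genes inside Feml2, a locus for femur length. A base in its last exon differs between the strains and changes a codon, and is shown because it adds a coding difference to the allele difference described further on. The position was taken from the study's list of CAST variants, and the surrounding bases from the reference transcripts of GENCODE M21. On the genome the change is G62060441C, with the B6 base first, and on the coding strand it is C1427G, counted from 1 at the A of the start codon. It falls on base 2 of codon 476 in a coding sequence of 1854 bases. The coding strand from chr9:62060411-62060471 is given for each strain, with the changed base in capitals.
Glce B6: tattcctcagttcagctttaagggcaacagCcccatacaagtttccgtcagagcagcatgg
Glce CAST: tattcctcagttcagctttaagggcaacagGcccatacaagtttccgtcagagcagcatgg

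Promoter sequence was available from RefSeq (GRCm38.p6) for 36 of the 48 genes. The 250 bases before the annotated start are shown for 3 genes whose alleles differed: Glce, Chst3, a chondroitin sulfotransferase with the lowest CAST to B6 ratio of the autosomal members, and Ext2, a heparan sulfate polymerase subunit with the smallest FDR. All 3 genes are on the minus strand and are read 5′ to 3′, at chr9:62122610-62122859, chr10:60219261-60219510 and chr2:93822569-93822818. Capitals mark GC boxes (GGGCGG on either strand). These are the B6 reference bases, and the CAST bases were not analysed here.
Glce promoter: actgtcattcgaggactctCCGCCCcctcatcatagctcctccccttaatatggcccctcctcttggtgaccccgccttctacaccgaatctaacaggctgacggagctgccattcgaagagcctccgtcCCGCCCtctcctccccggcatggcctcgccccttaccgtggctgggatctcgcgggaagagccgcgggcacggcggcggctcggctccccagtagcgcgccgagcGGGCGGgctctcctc
Chst3 promoter: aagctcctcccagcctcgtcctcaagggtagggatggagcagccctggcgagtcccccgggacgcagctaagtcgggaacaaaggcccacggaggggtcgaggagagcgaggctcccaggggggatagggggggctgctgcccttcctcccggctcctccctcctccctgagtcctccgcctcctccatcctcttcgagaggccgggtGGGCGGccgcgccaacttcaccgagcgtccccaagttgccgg
Ext2 promoter: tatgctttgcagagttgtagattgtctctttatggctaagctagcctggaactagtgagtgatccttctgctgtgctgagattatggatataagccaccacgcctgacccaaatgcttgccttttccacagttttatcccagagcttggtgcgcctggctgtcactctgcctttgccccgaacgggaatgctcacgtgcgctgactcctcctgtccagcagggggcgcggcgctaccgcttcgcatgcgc
The Glce stretch held 3 GC boxes and the Chst3 stretch 1, whereas the Ext2 stretch held none of the 3 motifs searched. Of the 36 promoters, 28 (77.8%) held a GC box, against 32.7% of 32851 promoters of the same length in the table. A CCAAT box (CCAAT, either strand) was in 33.3% of the members' promoters and 33.8% of all, and a TATA box (TATAAA, either strand) in 5.56% and 12.4%. Median GC content was 65.8% for the members and 52.4% for all promoters, with medians of 19.5 and 6 CpG dinucleotides. The groups compared are unlike. Each member entered with 1 promoter, the one nearest its annotated gene start, and the background with every listed promoter, whatever the expression of its gene. The part of this in the differences was not tested. A GC box and a CpG can overlap, so these measures are not separate. A match describes letters only.

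The genes were well expressed. Levels are given as CPM of both alleles together per kilobase of exon, with trimmed-mean (TMM) scaling between mice. Of the 48 genes, 45 (93.8%) lay above the median of 15833 tested protein-coding genes and 14 lay in its highest 10%. The core proteins led: Hspg2 (perlecan, the large heparan sulfate proteoglycan of the pericellular matrix) averaged 177 ± 41.8 (SD, n = 7 mice), the glypican Gpc1 150 ± 28.6 and the syndecan Sdc4 127 ± 14.5. The weakest was Hs6st2, a heparan sulfate 6-O-sulfotransferase, with 0.108 ± 0.0287 (SD, n = 7), followed by the chondroitin synthase Chsy3 with 1.46 ± 0.255.

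**Figure D1:**
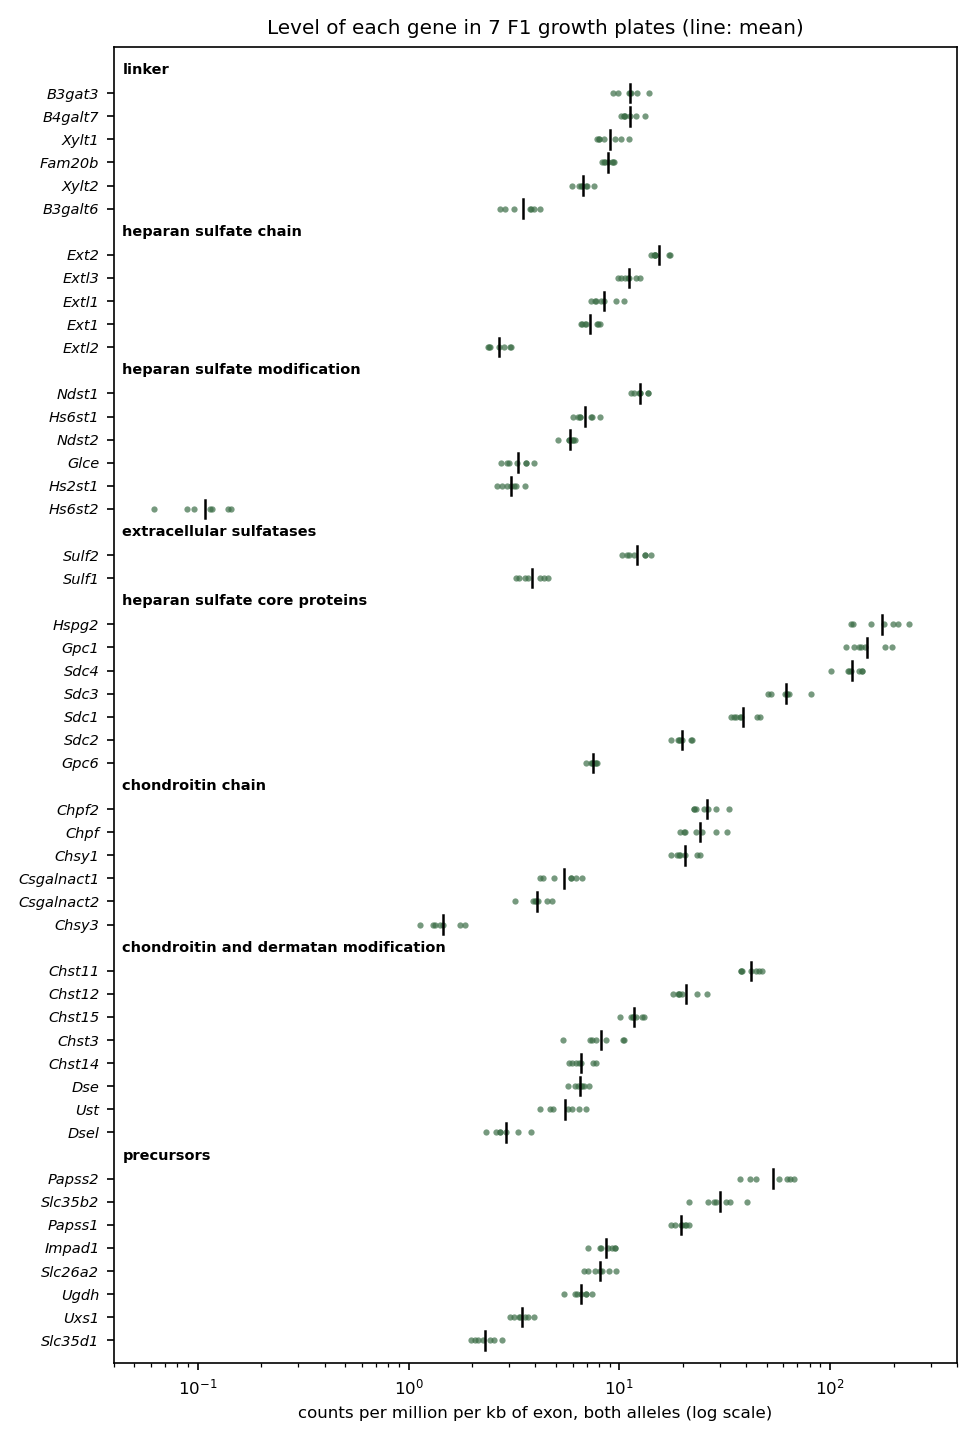
Level of the 48 genes in each of 7 mice, in CPM per kilobase of exon on a log scale, grouped by role and ordered by mean within a role. Points are mice and lines are means. Core proteins reach a mean of 177 for Hspg2, and Hs6st2 sits alone near 0.108.

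Within each step the levels were spread widely. Among the 6 linker genes, means ran from 3.49 for B3galt6, which adds the outer galactose, to 11.3 for B3gat3, which adds the closing glucuronic acid. The heparan sulfate chain genes ran from 2.69 for Extl2, an N-acetylglucosamine transferase acting on the linker, to 15.4 for Ext2. Among modifying enzymes of heparan sulfate the highest was Ndst1, the deacetylase and N-sulfotransferase that opens chain modification, at 12.6. Core proteins ranged from 7.50 for the glypican Gpc6 to 177. Chondroitin chain genes ranged from 1.46 for Chsy3 to 25.9 for Chpf2, a chondroitin polymerising factor. The chondroitin and dermatan modifying enzymes ranged from 2.91 for the epimerase Dsel to 42.0 for Chst11, a chondroitin 4-O-sulfotransferase. Among the precursor genes, Papss2, which makes the sulfate donor PAPS and whose loss causes brachymorphism in mice, had the highest mean at 53.5, and Slc35d1, a nucleotide sugar transporter of the endoplasmic reticulum, the lowest at 2.31.

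The coefficient of variation over mice ran from 4.21% to 26.5%, with a median of 12.1%. Mouse 4 had the highest value for 16 of the 48 genes and also the highest chondrocyte marker sum, 14212 against 7791 to 10837 in the other mice. The lowest value fell on mouse 1 for 12 genes and on mouse 7 for 9, and these were the mice with the lowest marker sums, 7791 and 7983. Mouse 4, however, also had the lowest value for 8 genes. The part of tissue makeup in these level differences was not tested. The 7 mice form 1 condition, and no test between mice was made.

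Related genes were compared within mice as 12 pairs. The log2 ratio of levels was tested by exact sign flips over the mice, a permutation test counting both directions. The p-values were adjusted over the 12 pairs. The smallest adjusted p possible here, 0.017, was reached by 11 pairs. Ndst1 exceeded Ndst2 by 1.11 ± 0.15 on the log2 scale (SD, n = 7), and Sulf2 exceeded Sulf1, the other endosulfatase that trims 6-O-sulfate from finished chains, since the log2 ratio of Sulf1 over Sulf2 was -1.65 ± 0.20 (SD, n = 7). Ext1 and Ext2 form a single polymerase complex, and the log2 ratio of Ext1 over Ext2 was -1.08 ± 0.18. Ratios were positive for Hs6st1 over Hs6st2 (6.00), Gpc1 over Gpc6 (4.30), Chsy1 over Chsy3 (3.81), Dse over Dsel (1.17), Chst11 over Chst12 (1.03) and Xylt1 over Xylt2 (0.41). They were negative for Papss1 over Papss2 (-1.41) and Chpf over Chpf2 (-0.11).

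The pair that missed the threshold was Csgalnact1 and Csgalnact2, the enzymes that commit the linker to chondroitin sulfate. Its log2 ratio was 0.41 ± 0.38 (SD, n = 7), positive in 6 of 7 mice (exact sign-flip permutation test, adjusted p = 0.0625), with values from -0.06 to 0.87. The choice of gene length moved some ratios by more than their spread over mice, and the exact tests do not cover it. With the median length of coding transcripts the ratio of Xylt1 over Xylt2 turned to -0.53, that of Csgalnact1 over Csgalnact2 turned to -0.13, and that of Ext1 over Ext2 moved to -4.20. With the longest transcript, Chpf over Chpf2 turned to 0.039. The sign of these 3 ratios depended on the length assumed, and which transcripts the tissue used was not tested.

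**Figure D2:**
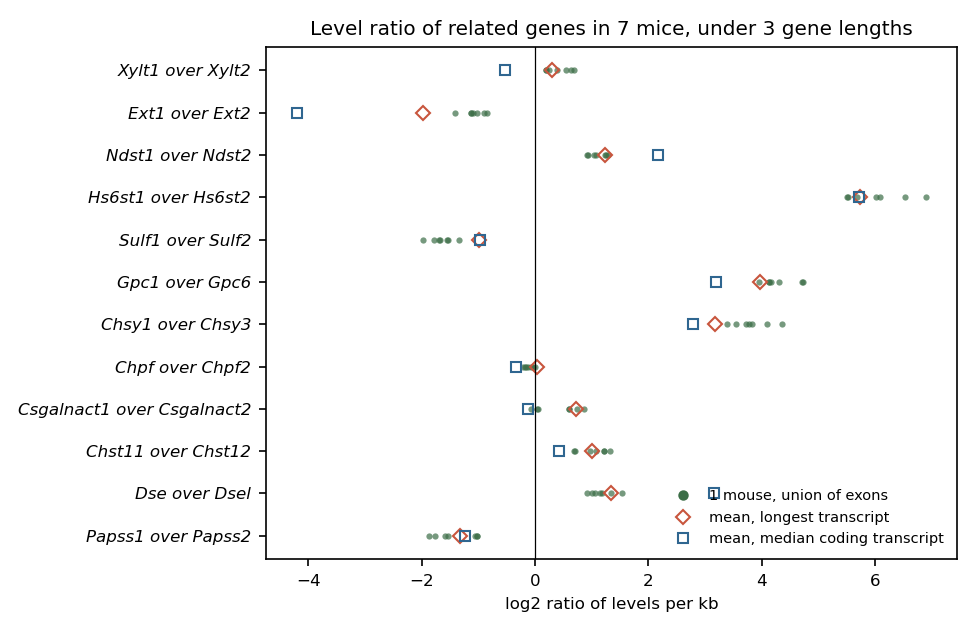
Log2 ratio of levels per kilobase for 12 pairs of related genes. Green points are the 7 mice with the union of exons as length, open diamonds the mean with the longest transcript, and open squares the mean with the median coding transcript. Most pairs stay on 1 side of 0, while Xylt1 over Xylt2, Chpf over Chpf2 and Csgalnact1 over Csgalnact2 cross it.

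The alleles were then compared across all 21805 genes with a count in every mouse, by edgeR's likelihood-ratio test with Benjamini-Hochberg adjustment over those genes and an FDR threshold of 0.20. Genome-wide, 32.6% of tested genes were called. All 47 autosomal members had at least 10 counts in every mouse. The background is therefore the 14526 autosomal genes that also did, of which 33.6% were called. It shares this floor but was not matched for level, and 45 of the 48 members lay above the protein-coding median. Among the 47 autosomal members, 15 (31.9%) were called, a share close to that background. Of these, 8 had more counts from CAST (background 17.6%) and 7 more from B6 (background 16%). The other 32 had log2 fold changes between -0.21 and 0.21 and FDR values of 0.316 or more. At an FDR under 0.05, 14 of the 15 remained.

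The called differences were modest, and only Sulf1 and Chst3 exceeded a fold of 1.5. The median absolute log2 fold change over the 47 genes was 0.11, against 0.17 over the 14526 genes. The median signed value was 0.01 for the members and 0.02 for the background. In 18 of the 47 genes (38.3%; background 26.3%) the same allele had more counts in every mouse, 8 for CAST and 10 for B6. The ranges of the alleles, as CPM of 1 allele, did not overlap for 4 genes, Ext2, Ndst1, Sulf1 and Ugdh (background 8.32% of genes). Members and background were not matched for the number of counts, and the part of this in these differences was not tested.

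**Figure D3:**
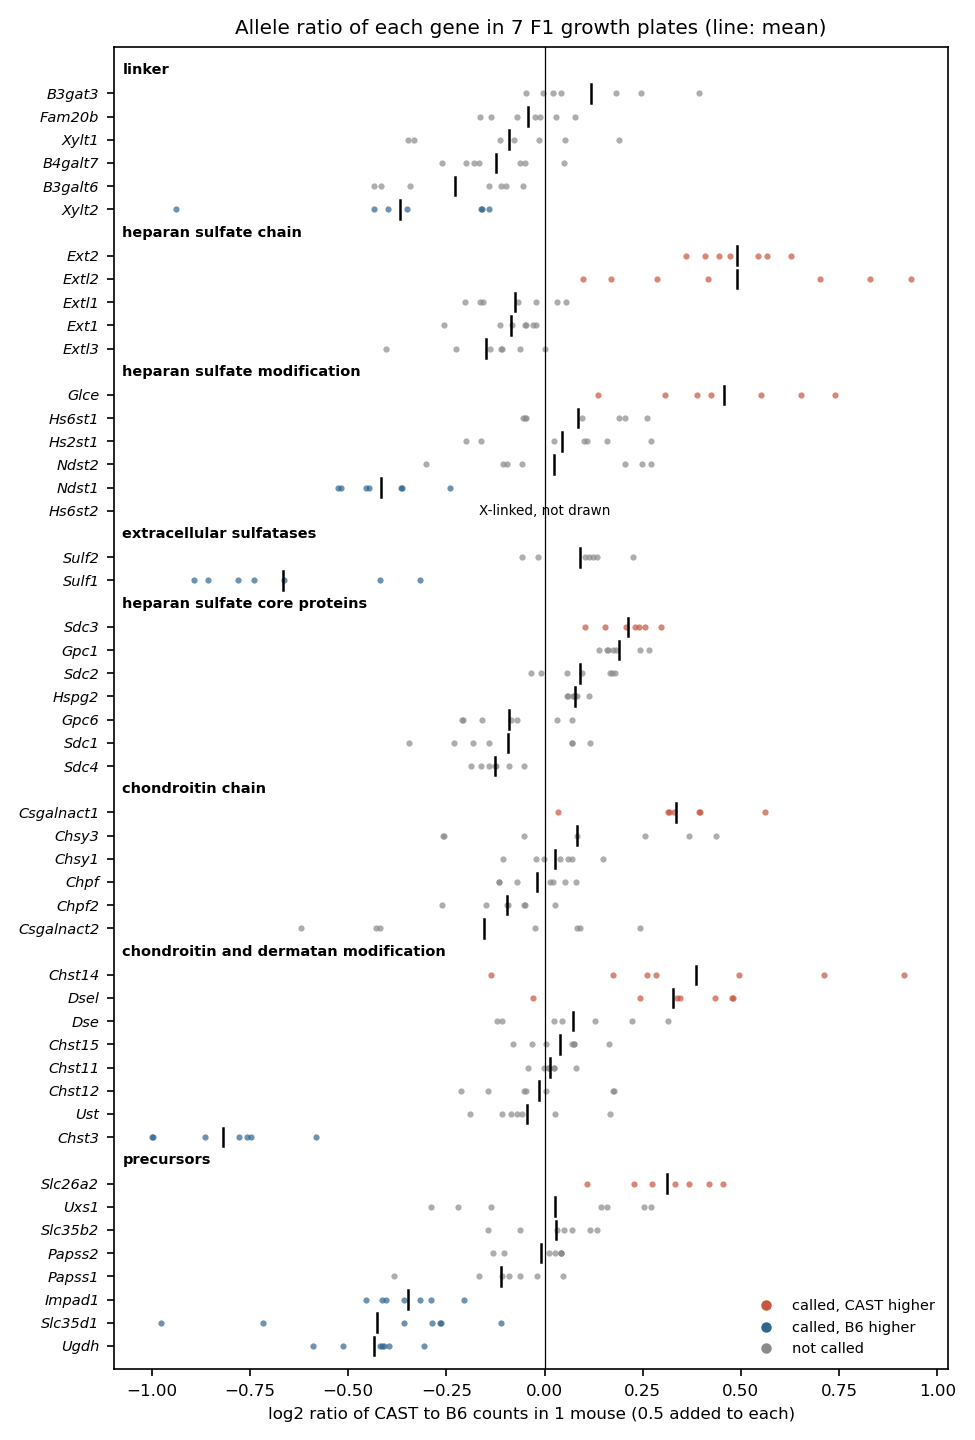
Log2 ratio of CAST to B6 counts for 47 autosomal genes in each of 7 mice, with 0.5 added to each count, grouped by role. Points are mice, black lines are means, red marks genes called with CAST higher, blue those with B6 higher and grey the 32 genes not called. Hs6st2 is X-linked and is not drawn.

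Both alleles of a mouse come from the same library. With the mouse as a replicate block, edgeR's likelihood-ratio test called 29 of the 47 genes, 16 with CAST higher and 13 with B6 higher, against 49.0% of the background genes. All 15 calls were kept and 14 were added. The added genes had small differences: B4galt7, B3galt6, B3gat3, Ext1, Extl3, Hs6st1, Sulf2, Hspg2, Sdc2, Sdc4, Gpc1, Chsy1, Chpf2 and Chst11. At least 5 of 7 mice shared the direction, except for Hs6st1 and Chsy1, where CAST was higher in only 4. Hs6st1 and Chsy1 were not called by the blocked quasi-likelihood test, which called 27. The exact test over 7 mice cannot give a p below 0.0156, which adjusted over the 14526 genes is 0.0595. Of the 47 genes, 26 had an adjusted p under 0.20 in this exact sign-flip test. The share of the background genes was not counted, so this number cannot set the members apart from other genes.

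The linker genes showed 1 call among 6. Xylt2, which with Xylt1 puts the first xylose on the core protein, had 9.02, 12.1 and 13.2 CPM from the CAST allele in the lowest, median and highest mouse, against 12.5, 15.0 and 17.3 from B6. The ranges overlapped slightly, but B6 was higher in all 7 mice. Its log2 fold change of CAST over B6 was -0.34 ± 0.10 (SE; edgeR, FDR 0.00502). Xylt1 itself, at -0.05, was not called, nor were B4galt7, which adds the first galactose, B3gat3, or Fam20b, the kinase that phosphorylates the xylose. B3galt6 was B6-higher in every mouse with a log2 fold change of -0.21 (edgeR FDR 0.316, and 0.0149 with the mouse as a block).

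Among the 5 polymerase genes of heparan sulfate, Ext2 and Extl2 were called, both with CAST higher. Ext2 (93661028 to 93822568 on chromosome 2, GRCm38/mm10) had 60.5, 62.5 and 76.4 CPM from CAST in the lowest, median and highest mouse, and 42.2, 46.7 and 54.2 from B6. The lowest CAST value was thus above the highest B6 value. Its log2 fold change was 0.51 ± 0.09 (SE), with the smallest FDR of the 47 genes (edgeR, 1.34e-07). Ext1, its partner in the polymerase, went the other way in every mouse but by only -0.06 (edgeR FDR 0.778, and 0.178 with the block). Loss of either gene causes multiple exostoses, the cartilage-capped outgrowths near growth plates.

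Extl2 had 4.27, 5.40 and 6.42 CPM from CAST and 3.03, 3.99 and 4.99 from B6 in the lowest, median and highest mouse. The ranges overlapped, and CAST was higher within each of the 7 mice. Its log2 fold change was 0.48 ± 0.14 (SE; edgeR, FDR 0.00278), on few counts, 58.1 to 170 per allele and mouse. Extl1 (-0.05) and Extl3 (-0.12), a transferase that starts heparan sulfate chains, were not called. Extl3 passed with the mouse as a block (edgeR FDR 0.0369).

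The modifying enzymes of heparan sulfate split by direction. Glce had 9.83, 12.4 and 15.3 CPM from CAST in the lowest, median and highest mouse, against 7.76, 9.17 and 11.7 from B6. CAST was higher within each mouse although the ranges overlapped. The log2 fold change was 0.48 ± 0.12 (SE; edgeR, FDR 0.000427). The study already lists Glce among the Feml2 genes expressed more from CAST, with a larger P-value and FDR than here. The source of that gap was not tested. The total was a whole number in every mouse, which gave no sign of reads divided with another gene but does not prove that none was shared. The variant at codon 476 shown above lies within the transcript whose CAST copy was the more abundant.

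Ndst1 moved the opposite way. Its CAST allele had 38.6, 44.8 and 49.8 CPM in the lowest, median and highest mouse, and its B6 allele 55.6, 57.8 and 65.1. The ranges were apart, and the log2 fold change was -0.39 ± 0.09 (SE; edgeR, FDR 5.99e-05). Ndst2, its paralogue, was at 0.04, and the 2-O-sulfotransferase Hs2st1 at 0.08, neither called. Hs6st1, at 0.10, was called only in the blocked likelihood-ratio test (edgeR FDR 0.142) and not in its quasi-likelihood version (edgeR FDR 0.203).

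Hs6st2 is X-linked and was counted apart, since each male has 1 X chromosome. It had only 9 to 32 counts per mouse, with 0.22, 10.2 and 13.0 counts assigned to CAST in the lowest, median and highest mouse and 4.99, 14.3 and 27.0 to B6. In 6 of 7 mice B6 held more, and mouse 3 had about equal counts. The CAST share of the summed counts was 34.5%, whereas X-linked genes of the same pathway had 2.48% (Gpc3), 0.160% (Gpc4) and 0.00339% (Chst7). The log2 fold change of -0.97 ± 0.37 (SE; edgeR, FDR 0.0347) lost its call without mouse 2 (FDR 0.211). With only 1 allele of Hs6st2 in each male, this value does not measure a difference between the alleles of an animal. The source of the counts assigned to CAST was not tested.

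Of the extracellular sulfatases, Sulf1 (12692277 to 12861192 on chromosome 1) had 14.1, 16.8 and 19.5 CPM from CAST in the lowest, median and highest mouse, against 20.9, 26.0 and 32.5 from B6. Every B6 value was above every CAST value, and the log2 fold change was -0.66 ± 0.12 (SE; edgeR, FDR 2.76e-07), a fold of 0.633. Sulf2, the more highly expressed of the pair, had a log2 fold change of 0.12 (edgeR FDR 0.504, and 0.0102 with the block), and part of its reads was divided with other genes in all 7 mice.

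Of the 7 core proteins 1 was called. Sdc3, a syndecan of developing cartilage, had 168, 198 and 264 CPM from CAST and 137, 172 and 221 from B6 in the lowest, median and highest mouse, with wide overlap. CAST was higher within all 7 mice, with a log2 fold change of 0.23 ± 0.12 (SE; edgeR, FDR 0.167). This call was lost without any 1 of mice 1, 2, 3, 5, 7 and 8 (FDR up to 0.311), and part of its reads was shared with other genes in every mouse. With the mouse as a block its FDR was 2.39e-20.

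Hspg2 shows how a small offset can recur. With 12782 to 49607 counts per allele and mouse, its log2 ratio of CAST to B6 was 0.06 at the lowest, 0.07 at the median and 0.11 at the highest, so CAST was ahead in all 7 mice by a narrow margin. Its level, meanwhile, ranged from 126 to 236 CPM per kilobase over the mice. The test without a block gave an FDR of 0.822 and the blocked test 9.74e-17 (both edgeR). Gpc1 behaved likewise, with log2 ratios of 0.14, 0.17 and 0.27 in the lowest, median and highest mouse and FDR values of 0.317 and 2.28e-24 (edgeR, without and with the block). Sdc4, a syndecan at focal adhesions, was B6-higher in every mouse, with log2 ratios of -0.19 to -0.05 and FDR values of 0.553 and 2.14e-07 by the same pair of tests. Sdc2 (0.11) was added by the block as well, while Sdc1 (-0.08) and Gpc6 (-0.07) were called in neither fit.

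Chondroitin chain synthesis had 1 call in 6. Csgalnact1 had 12.2, 15.1 and 18.7 CPM from CAST in the lowest, median and highest mouse, against 8.61, 13.3 and 15.0 from B6. The ranges overlapped widely, and within each mouse CAST was ahead, in mouse-wise log2 ratios of 0.03 to 0.56. Its log2 fold change was 0.35 ± 0.13 (SE; edgeR, FDR 0.0465). The chondroitin synthases Chsy1 (0.05) and Chsy3 (0.11), the polymerising factors Chpf (0.01) and Chpf2 (-0.08), and Csgalnact2 (-0.12) were not called.

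Chst3, which places 6-O-sulfate on chondroitin and is mutated in a human spondyloepiphyseal dysplasia, had the largest fold among the autosomal members. It lies at 60181532 to 60219260 on chromosome 10. The CAST allele had 14.0, 17.9 and 25.3 CPM in the lowest, median and highest mouse and the B6 allele 21.0, 33.6 and 44.2. The ranges overlapped, but within each mouse CAST was lower, with a median log2 ratio of -0.78 and a highest of -0.58. The log2 fold change was -0.80 ± 0.15 (SE; edgeR, FDR 2.95e-06), a fold of 0.574.

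Among the other 7 enzymes that modify chondroitin and dermatan sulfate, both calls were CAST-higher and both genes act in dermatan sulfate synthesis. Chst14, the dermatan 4-O-sulfotransferase, had a log2 fold change of 0.40 ± 0.13 (SE; edgeR, FDR 0.0114), with CAST higher in 6 of 7 mice. The epimerase Dsel was at 0.36 ± 0.14 (SE; edgeR, FDR 0.0412), also in 6 of 7 mice. Dse, the more highly expressed epimerase, was at 0.10 and was not called. Chst11 (0.03), the sulfotransferases Chst12 (0.01) and Chst15 (0.06), and the 2-O-sulfotransferase Ust (-0.02) were not called either.

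The precursor genes held 4 calls in 8, against 33.6% called in the autosomal background. So few genes cannot set this step apart from the others. Ugdh, the dehydrogenase that makes UDP-glucuronic acid for both kinds of chain, had 15.9, 18.3 and 21.0 CPM from CAST in the lowest, median and highest mouse and 21.2, 26.0 and 30.1 from B6. The ranges did not overlap. The log2 fold change was -0.42 ± 0.09 (SE; edgeR, FDR 8.45e-05). Uxs1, which turns that sugar into UDP-xylose for the linker, was at 0.05 and was not called.

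Slc35d1, which carries UDP-glucuronic acid and N-acetylgalactosamine donors into the endoplasmic reticulum, had 5.67, 8.65 and 10.7 CPM from CAST and 10.2, 11.2 and 12.9 from B6 in the lowest, median and highest mouse. B6 was higher within every mouse although the ranges just overlapped. Its log2 fold change was -0.37 ± 0.13 (SE; edgeR, FDR 0.0239). Impad1, the Golgi phosphatase that clears the by-product of sulfation, had 21.6, 24.9 and 28.0 CPM from CAST against 24.9, 33.2 and 34.5 from B6, again lower for CAST in all 7 mice. The log2 fold change was -0.33 ± 0.10 (SE; edgeR, FDR 0.00409).

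Slc26a2, the sulfate transporter that is mutated in diastrophic dysplasia, was the precursor gene called with CAST higher. It had 45.5, 54.8 and 68.0 CPM from CAST in the lowest, median and highest mouse against 37.1, 45.3 and 50.8 from B6. The ranges overlapped, with CAST ahead within each mouse. Its log2 fold change was 0.34 ± 0.11 (SE; edgeR, FDR 0.00904), and part of its reads was divided with other genes in all 7 mice. The sulfate donor synthases Papss1 (-0.09) and Papss2 (0.00) and the Golgi donor transporter Slc35b2 (0.04) were not called. Slc26a2 and Ndst1 are the only 2 members within 1000000 bases of each other, 444 kb apart, and their alleles differed in opposite directions.

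**Figure D4:**
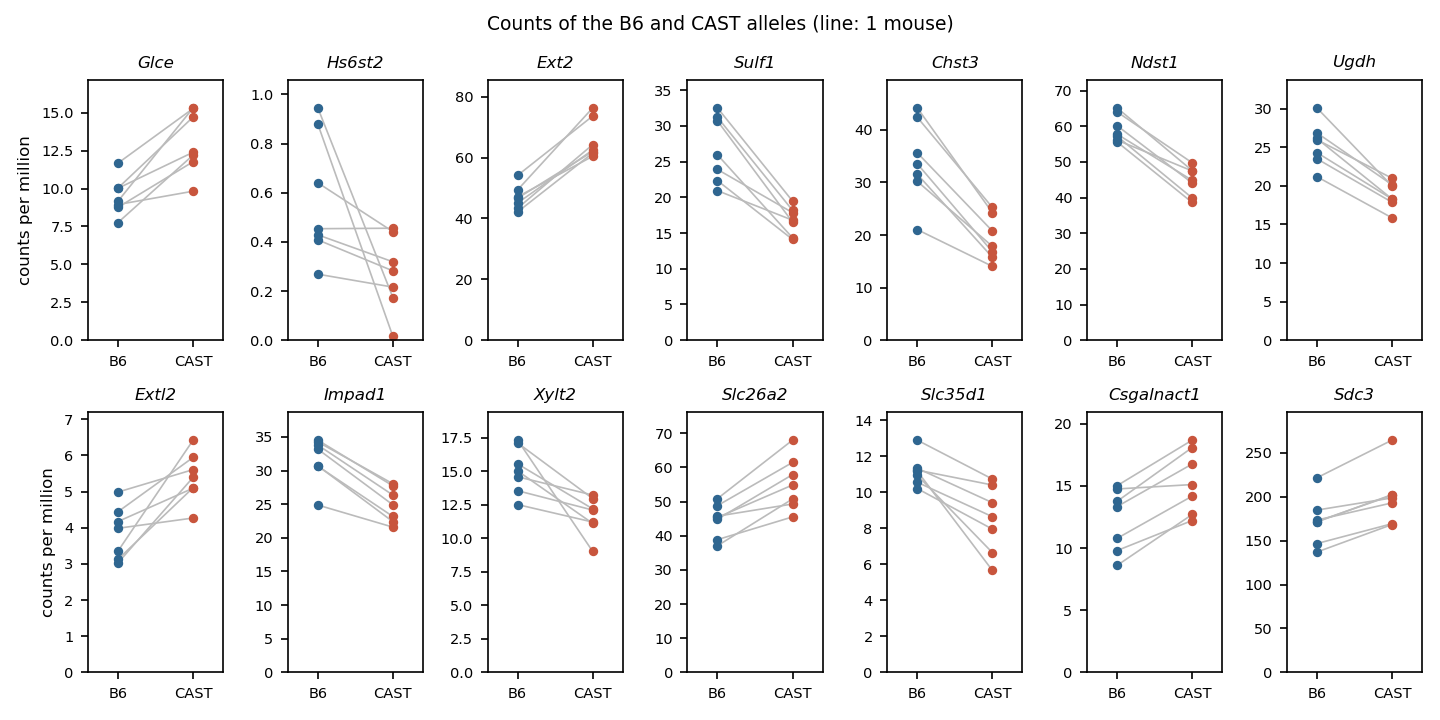
CPM from the B6 (blue) and CAST (red) allele in 7 mice for the 14 genes described mouse by mouse, with a grey line joining the alleles of 1 mouse. Each axis starts at 0. Every line rises for Glce, Ext2, Extl2, Slc26a2, Csgalnact1 and Sdc3 and falls for Sulf1, Chst3, Ndst1, Ugdh, Impad1, Xylt2 and Slc35d1. Hs6st2 is mixed.

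Beyond the 48 genes, 32 further genes of the pathway were listed. Of these, 3 were X-linked, 6 lacked a count in at least 1 mouse and were not tested, and 23 autosomal genes were tested, 20 of them with at least 10 counts in every mouse. CAST was higher for 5: Agrn (agrin, a heparan sulfate core protein; 0.78), Pxylp1 (the phosphatase that reverses Fam20b; 0.60), Uap1 (which makes UDP-N-acetylglucosamine; 0.31), Chst13 (0.37) and Hs3st5 (0.83) as log2 fold changes. B6 was higher for 4: the glypican Gpc2 (-2.16), the phosphatase Bpnt1 (-0.42), the heparanase Hpse (-0.39) and Hs3st6 (-1.41). The remaining 14 were not called. With at least 10 counts in every mouse required, 7 of the 20 genes were called, a share near the 33.6% of the autosomal background with that floor. Hs3st5 and Hs3st6, both heparan sulfate 3-O-sulfotransferases, rested on 6 to 25 and 2 to 14 counts per mouse. Gpc2 had 0.0069 to 21.9 counts from CAST per mouse, and part of the reads of Gpc2 and Bpnt1 was divided with other genes in all 7 mice. At an FDR under 0.05, 6 of these 9 calls remained.

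The method that made the counts divides reads that fit several genes. The total of both alleles was not a whole number, within 0.0001, in at least 1 mouse for 18 of the 48 genes, and in all 7 mice for 6: Hs6st1, Sulf2, Sdc3, Chsy1, Chpf2 and Slc26a2. Of the called genes, Chst3 and Ugdh had such totals in 3 mice each. The allele differences of these genes include reads whose gene of origin was estimated.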

How the data were processed

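The authors sequenced RNA from tibial growth plates of 7 male mice, F1 of B6 and CAST, from both read ends. Reads were mapped by Bowtie onto a transcriptome made with g2gtools (mm10) that contains the alleles of both strains, allowing 3 mismatches, and both alleles were quantified with EMASE, each end and lane separately. The deposited values are estimated counts per gene and allele, not normalized and not always whole, because reads that fit several places are divided among them. Divided reads can blur differences between alleles and between related genes.

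Gene names and exons came from GENCODE M21, which held 42462 of the 43346 identifiers (98.0%). Genes with a total above 0 in every mouse (21805) were kept, counts were rounded, and CAST was compared with B6 in edgeR 4.0.16 (limma 3.58.1, R 4.3.3) with TMM factors, estimateDisp, glmFit and glmLRT. P-values were Benjamini-Hochberg adjusted over all tested genes, and genes were called at an FDR under 0.20. The gene filter, glmFit, glmLRT and this threshold follow the study, and the set of genes adjusted over and the other settings may differ from it. Because the filter accepts fractions of a read, 1406 of the tested genes averaged below 1 count. Simulated counts were used to test the fits without a block, with 200 of 21805 genes changed and both alleles of a mouse drawn independently. The share of false calls exceeded the nominal FDR for the likelihood-ratio test and not for the quasi-likelihood test. The FDR values printed may therefore be too low. The data, however, had more genes called and correlated alleles, so the simulation cannot say how far this applies to them. The blocked fits were not simulated. For single genes and pairs, exact two-sided sign-flip permutation tests over mice used log2 ratios with 0.5 added to each count.

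The alleles of a mouse come from 1 library. Deviations of the alleles from their means correlated within each mouse at 0.108 to 0.400 across 14526 genes, against -0.316 to 0.268 between mice. A fit with the mouse as a replicate block is therefore reported as well. The genes it added are all named, and its FDR is printed for some of them. Where no block is named, calls in the paragraphs on single roles are those of the fit without it.

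Alternatives were DESeq2 1.42.0, the quasi-likelihood test of edgeR, RLE or no factors, other filters, thresholds, gene lengths and pseudocounts (1 and 0.1), unrounded counts and each mouse left out. The genes, lists and roles were chosen with earlier results of these data known. Every gene is named. Values by mouse were given for Glce, Hs6st2 and the autosomal genes called with the same direction in every mouse. Depth was 14098019 to 37849667 counts per mouse, and genes with few counts carry more counting error, which the counts may understate where a read pair was counted more than once. Plots and summaries used Python 3.11.15 with numpy, pandas, scipy and matplotlib.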

Additional observations from a re-analysis of the deposited data

Results flagged for a closer look

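In 96 sets of 7 values (the log2 allele ratio and the log2 level of each of the 48 genes), 4 held 1 mouse far from the others by Dixon's 95% criterion. Chance flags about 1 in 20 sets, or 4.8 of 96, which is no fewer than were found. For Xylt2, mouse 7 had a log2 ratio of CAST to B6 of -0.94, from 131 CAST and 252 B6 counts, against -0.44 to -0.14 elsewhere. Without mouse 7 the log2 fold change of Xylt2 was -0.26 (edgeR, FDR 0.0492), so its call did not rest on that mouse. For Ext1, mouse 7 had a log2 ratio of -0.26, from 372 and 444 counts, against -0.11 to -0.02 in the others. Hspg2 had a log2 ratio of 0.11 in mouse 1, from 49607 and 45837 counts, against 0.06 to 0.08 in the others. The log2 level of Ndst2 was 2.36 in mouse 3 and 2.53 to 2.62 in the others. Mouse 7 was the most shallowly sequenced, with 14098019 counts, and the part of depth in its values was not tested.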

How the results depend on the processing

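Calls over the 47 autosomal genes were little changed by the quasi-likelihood test, DESeq2, other factors, filters, unrounded counts or an FDR under 0.05, with 7 or 8 CAST-higher and 7 B6-higher genes throughout. With the mouse as a replicate block, CAST-higher calls rose from 8 to 16 in the likelihood-ratio test and 14 in the quasi-likelihood test, and B6-higher calls from 7 to 13 in both. With each mouse left out in turn, CAST-higher calls numbered 7 to 8 and B6-higher calls 7, the further pathway genes called 7 to 10, genes with 1 direction in every mouse 18 to 20, and pairs past the threshold 11 to 12. Of the 15 called genes, 14 kept their call in all 17 alternatives. Sdc3 lost it in 7, also when X-linked, Y-linked and mitochondrial genes were left out (edgeR, FDR 0.215). Hs6st2 lost its call in the blocked quasi-likelihood test (edgeR, FDR 0.248) as well as without mouse 2. The log2 level ratio reversed to -0.53 for Xylt1 over Xylt2 and -0.13 for Csgalnact1 over Csgalnact2 with the median coding transcript as length, and to 0.039 for Chpf over Chpf2 with the longest transcript, while the allele tests use no gene length. The 7 mice limit the exact tests to a p of 0.0156 or more, and 9 to 32 counts per mouse leave Hs6st2 poorly determined.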
